A study of Bos taurus with 60 samples.

Results

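The cecum of beef steers that shed very large numbers of E. coli O157 (super-shedders, SS) was compared with that of pen-mates whose feces were negative for the pathogen (non-shedders, NS). The comparison used the 10 cecum libraries, 5 from SS and 5 from NS steers, of the 60 small RNA libraries from 6 gut regions of the same 10 steers. Members were all miRNAs with more than 1 CPM (counts scaled to a library total of 1000000) in at least 3 libraries of either phenotype. That rule kept 342 of the 608 miRNAs in the deposited table, of which 540 had at least 1 count in a cecum library. Of the 342, 310 passed in both phenotypes, 12 in NS only and 20 in SS only. Just inside the rule was bta-miR-491, whose third-highest CPM in its better phenotype was 1.03, and just outside it was bta-miR-134 at 0.961 CPM.

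Each library came from 1 steer, named here by its phenotype and number. All were British x Continental feedlot steers, and shedding was natural. The SS label rests on fecal counts taken before slaughter, and the study's methods state that most SS steers were still positive but below the super-shedder level when the tissue was taken. The tissue was snap-frozen intestine, powdered before RNA extraction, and both muscle and epithelial miRNAs were abundant in it. In such bulk samples, fewer cells of a type and less miRNA per cell cannot be told apart.

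A miRNA is a short RNA that pairs with messenger RNAs, mostly through bases near its 5′ end, and lowers their stability or translation. miRNAs that arise from related genes often share those bases and are grouped as families. In the gut wall, miR-143 and miR-145 are known from smooth muscle, miR-192, miR-194 and the miR-200 family from epithelium, and miR-451 and miR-144 from red blood cells. The cecum is a fermentation chamber at the junction of small and large intestine, and E. coli O157 passes through it on its way to the recto-anal junction, where it mainly colonizes cattle.

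Depth ranged from 875432 miRNA counts in the NS108 library to 4995993 in the NS745 library. The totals averaged 3197190 ± 1604780 in NS and 2653030 ± 1167070 in SS (SD, n = 5 each, exact two-sided permutation p = 0.54). No pair of libraries within a phenotype agreed within sampling noise, the smallest chi-square per degree of freedom over 20 pairs being 176, so each library counted as 1 replicate.

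The library labelled as the cecum of SS299 was low in miRNAs that mark the position of this region along the gut. bta-miR-196a and bta-miR-196b, which lie in the HOX gene clusters that pattern the body axis, stood at 1.40 and 0.930 CPM in that library. In the other 9 cecum libraries they ranged from 29.6 to 565 CPM and from 205 to 1459 CPM. In the 10 duodenum libraries they ranged from 0 to 1.61 CPM and from 0 to 4.33 CPM. bta-miR-10a, another HOX-cluster miRNA, had 2954 CPM in the SS299 library, within the duodenum range of 1028 to 8061 CPM and below the 8069 to 118100 CPM of the other cecum libraries. bta-miR-10b, also of these clusters, fell in neither range. It had 37930 CPM in SS299, against 1545 to 20200 CPM in the duodenum and 68590 to 151900 CPM in the other cecum libraries.

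**Figure D1:**
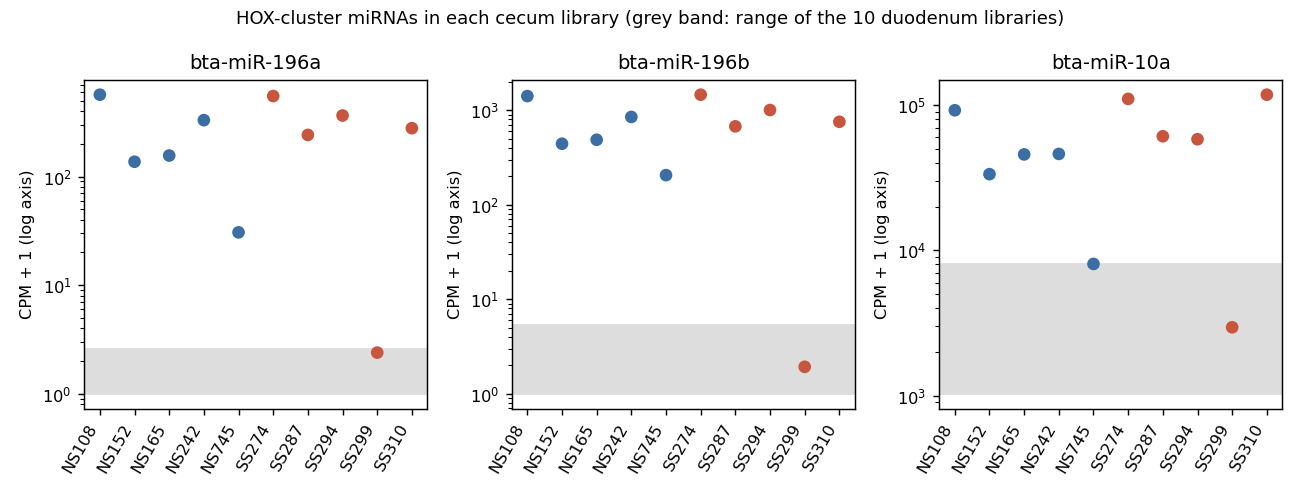
Levels of bta-miR-196a, bta-miR-196b and bta-miR-10a (CPM + 1 on a log axis) in each of the 10 cecum libraries, NS in blue and SS in red, with the range of the 10 duodenum libraries as a grey band. The SS299 library sat inside the band in all 3 panels, at 1.40, 0.930 and 2954 CPM, and the NS745 library sat just above the band for bta-miR-10a, at 8069 CPM. bta-miR-10b, which is not drawn, was 37930 CPM in SS299, above its duodenum range of 1545 to 20200 CPM.

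Over the 381 miRNAs that passed in any region, the log2 profile of the SS299 library correlated at 0.957 with the median duodenum library and at 0.948 with the median cecum library, with the steer itself left out of each median. The duodenum led narrowly. The coefficient was 0.954 with the spiral colon, 0.952 with the descending colon and 0.943 with either part of the jejunum. Of the other 9 cecum libraries, 8 were most like the cecum median, at 0.973 to 0.992, and NS745 was most like the descending colon median, at 0.976. These coefficients describe libraries across miRNAs and carry no test. On bta-miR-196a, bta-miR-196b and bta-miR-10a the SS299 library therefore went against its tissue label. Results that turn on it are also given without it. The spiral colon library of the same steer was also low, at 1.86 CPM of bta-miR-196a and 0.932 CPM of bta-miR-196b. Low values were not particular to this steer. In the spiral colon of the other 9 steers the lowest values were 11.6 and 0.552 CPM. In their descending colon both miRNAs reached 0 CPM.

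The count of detected miRNAs did not separate the phenotypes. With more than 1 CPM as the criterion, 329 ± 31.2 miRNAs were detected in NS and 328.2 ± 4.32 in SS (SD, n = 5 each, exact two-sided permutation p = 1, smallest possible p = 0.00794). The wide spread in NS came from the NS108 library with 384, against 310 to 323 in the other NS libraries. In NS108 a single count already exceeded 1 CPM, so detection there meant 1 count. Without NS108 the SS libraries, with 324 to 335, all lay above the NS libraries, and the difference was 12.95 miRNAs (exact permutation p = 0.00794). NS108 stands out by this same count, so the separation and its p were built into that choice and add no support. Thinned to the depth of NS108, the difference over all 10 libraries was 8.6 miRNAs (exact permutation p = 0.397).

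A single miRNA, bta-miR-378b, passed the test between SS and NS in the cecum, and it was lower in SS. In edgeR's quasi-likelihood test with Benjamini-Hochberg adjustment over the 342 miRNAs at a false discovery rate (FDR) of 10%, 1 miRNA was called lower (0.292% of those tested) and 0 higher (0%). At an unadjusted p under 0.05, 15 were lower (4.39%) and 12 higher (3.51%). With the exact test of edgeR, the kind the study's methods name, 3 miRNAs were called, all lower in SS (0.877%). Besides bta-miR-378b these were bta-miR-2904 and bta-miR-2284j. DESeq2 called the same 3 and bta-miR-320a among 338 miRNAs with an adjusted p, all lower (1.18%). limma-voom called 0, with 25 miRNAs at an unadjusted p under 0.05 and a smallest adjusted p of 0.379.

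bta-miR-378b belongs to a family whose best-known member, miR-378, lies within a regulator of mitochondrial metabolism, PPARGC1B, and has been tied to lipid metabolism in mice. In the RefSeq annotation of the cattle genome (ARS-UCD2.0), MIR378B lay within no other gene, between the protein-coding genes THY1 and NECTIN1. In NS its level, in CPM scaled by trimmed mean of M-values (TMM), was 84.5 in NS108, 86.1 in NS152, 84.8 in NS165 and 81.9 in NS242. The remaining NS library, NS745, had 4.08. In SS it was 5.18 in SS274, 4.77 in SS287, 6.82 in SS294, 0.749 in SS299 and 5.40 in SS310. The 4 high NS libraries lay within a narrow span and far above every SS library, while NS745 lay among the SS values, so the groups overlapped.

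The fitted log2 fold change of bta-miR-378b was -3.88 (SE 0.72, adjusted p = 0.0542 by edgeR's quasi-likelihood test). Its level averaged 68.3 ± 35.9 normalised CPM in NS and 4.58 ± 2.28 in SS (SD, n = 5 each), and all 5 SS libraries were below the NS median. The adjusted p was 5.27e-05 by the exact test of edgeR, 6.54e-07 by DESeq2 and 0.379 by limma-voom. Without SS299 the log2 fold change was -3.61 (SE 0.70) and the adjusted p by edgeR's quasi-likelihood test was 0.101, so the call was lost by a small margin. It was lost as well when NS152, NS165, NS242, SS274, SS287, SS294 or SS310 was left out, with adjusted p-values of 0.117 to 0.221 in the same test. Leaving out NS745, the low NS library, took the adjusted p to 0.000383 and the log2 fold change to -4.21. NS745 stands out by this same low value, so the drop in p was built into that choice.

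**Figure D2:**
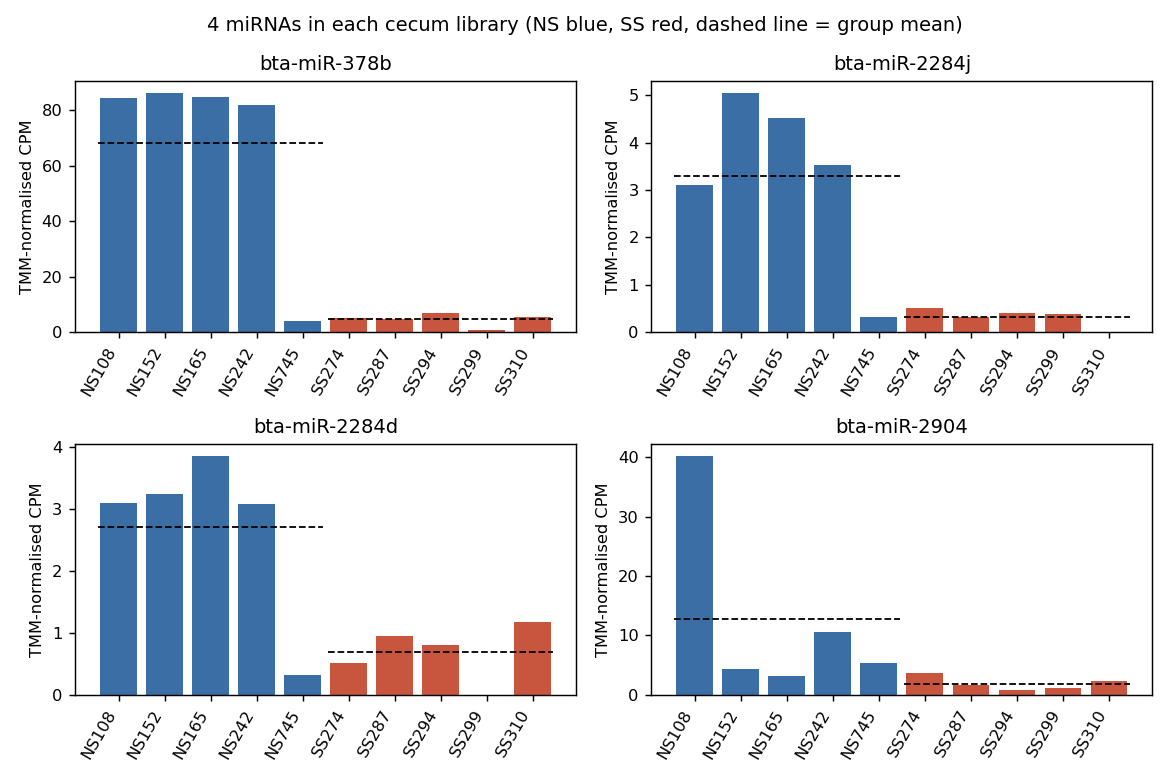
TMM-normalised CPM of 4 miRNAs (bta-miR-378b, bta-miR-2284j, bta-miR-2284d, bta-miR-2904) in each cecum library, NS in blue and SS in red, with the group mean as a dashed line. For the first 3 miRNAs 4 NS libraries stood high and NS745 stood at the SS level (4.08, 0.314 and 0.314), while for bta-miR-2904 the NS mean was carried by NS108 at 40.3.

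The call rested on few counts in SS. bta-miR-378b had 10, 15, 17, 2 and 23 counts in the SS libraries in the order above, 13 in NS745 and 109 to 263 in the other NS libraries. Summed over libraries, NS held 810 counts and SS 67, a level 10-fold higher in NS with an exact 95% interval of 7.81 to 13.1 that covers counting error only. PCR copies are not independent molecules, so intervals and detection floors cover counting error alone.

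The other miR-378 family members did not show the pattern. bta-miR-378 ranged from 4747 to 6482 normalised CPM in NS and from 1194 to 6786 in SS, its lowest value being SS299. Its log2 fold change was -0.44 (SE 0.35, adjusted p = 0.653, edgeR's quasi-likelihood test) and -0.20 without SS299. bta-miR-378c had a log2 fold change of -0.42 (SE 0.35) and bta-miR-378d of -0.49 (SE 0.42), with values of 24.3 and 1.497 normalised CPM in SS299. In NS745, where bta-miR-378b was low, bta-miR-378c stood at 105 and bta-miR-378d at 9.42, inside the range of the other NS libraries. Family members are close in sequence, and how reads matching several of them were shared is not given in the sources used here, so their counts may not be fully separate.

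A ratio within each library does not depend on the scaling between libraries. bta-miR-378b made up 0.0859% of the summed counts of bta-miR-378b and bta-miR-378 in NS745, and the NS median was 1.39% with a highest value of 1.48%. In SS it ranged from 0.0627% to 0.146% with a median of 0.111%. On this ratio NS745 again fell among the SS libraries.

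The level of bta-miR-378b went with the steer across the gut. In the 5 other regions NS745 had 3.21 to 5.82 CPM of library total, and the SS steers had 0.903 to 10.2 CPM over their 25 libraries. Of the 20 libraries from those regions of the other 4 NS steers, 19 had between 31.8 and 112 CPM. The remaining one, the descending colon of NS108, had 0.620 CPM, with bta-miR-2284j at 0.103 and bta-miR-2284d at 0.155 CPM in the same library. These regions come from the same steers and are not independent of the cecum.

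**Figure D3:**
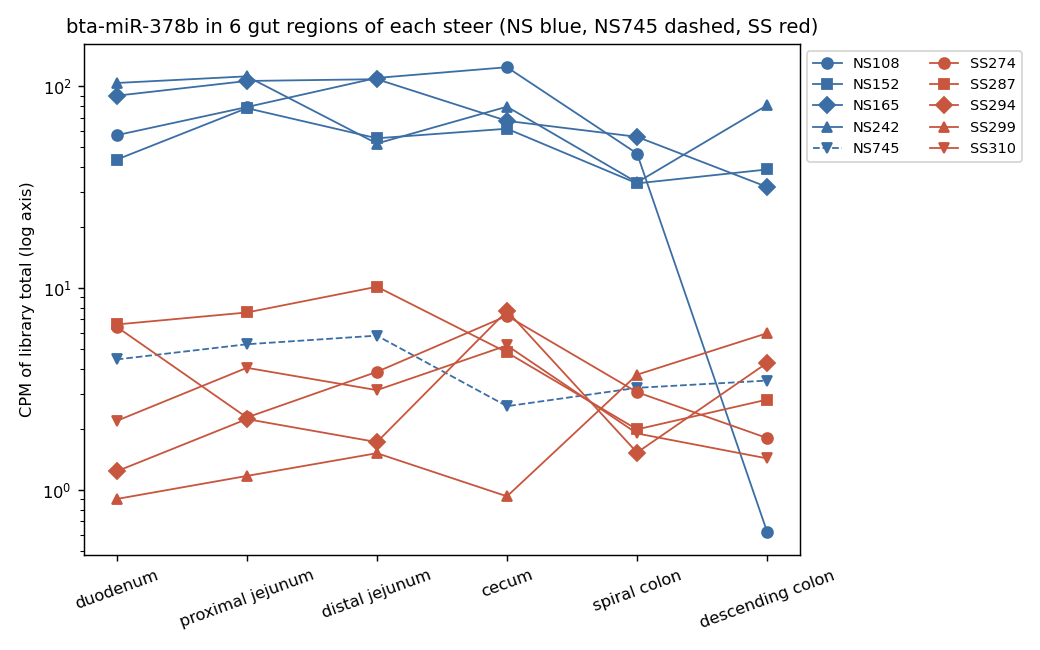
CPM of library total for bta-miR-378b on a log axis in 6 gut regions, with 1 line per steer, NS in blue (NS745 dashed) and SS in red. NS745 ran with the SS steers in every region, at 2.60 to 5.82 CPM, and the NS108 line dropped to 0.620 CPM in the descending colon.

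bta-miR-2284j, a member of the large bovine miR-2284 family, had the next smallest p, and its gene lay within GRIK4 in the same annotation. It stood at 3.10 normalised CPM in NS108, 5.05 in NS152, 4.51 in NS165 and 3.52 in NS242, and at 0.314 in NS745. In SS it was 0.518, 0.318, 0.401, 0.374 and 0 in SS274, SS287, SS294, SS299 and SS310. The high and low libraries were thus those of bta-miR-378b. It passed the CPM filter through NS only, as did bta-miR-2284d and bta-miR-365-5p, so a lower level in SS was built into its being tested. The log2 fold change was -3.33 (SE 0.76, adjusted p = 0.143, edgeR's quasi-likelihood test). Its adjusted p in the exact test of edgeR was 0.0166, and 0.0452 without SS299, but 0.171 without SS310. Without NS745 it passed edgeR's quasi-likelihood test too (adjusted p = 0.00662). NS745 is the low NS library for this miRNA, so leaving it out favours a call and adds no support.

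Every SS library held at most 1 count of bta-miR-2284j, under the floor of 3 counts that a count of 0 allows, which was 0.705 to 1.55 normalised CPM in SS. Summed counts were 41 in NS and 4 in SS. NS was 8.51-fold higher with an exact 95% interval of 3.08 to 32.7. At this depth the SS level could not be measured, only bounded.

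bta-miR-2284d, of the same family, had 3.10 normalised CPM in NS108, 3.24 in NS152, 3.87 in NS165 and 3.08 in NS242, and 0.314 in NS745. The SS values were 0.518, 0.953, 0.803, 0 and 1.18 in the same order of steers as before. Again NS745 lay with SS. The log2 fold change of -1.81 (SE 0.67) did not pass the test (adjusted p = 0.451 by edgeR's quasi-likelihood test). Without NS745 the exact test of edgeR called it.

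Across the family the values went both ways. Of 48 listed miR-2284 and miR-2285 miRNAs, 17 were tested, 12 had a positive and 5 a negative log2 fold change, and the median was 0.22. At an unadjusted p under 0.05, 2 were lower and 1 higher, bta-miR-2285k. Over all 342 tested miRNAs, 168 log2 fold changes were positive and 174 negative, with a median of -0.01, and 4.39% were lower and 3.51% higher at that p. bta-miR-2284x, the most abundant member, had a log2 fold change of 0.22 (SE 0.23). bta-miR-2284y had nearly the same counts as bta-miR-2284x in every library, so the pair cannot be told apart here.

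bta-miR-2904, described in cattle, differed in another way. Its normalised CPM was 40.3 in NS108, 4.32 in NS152, 3.22 in NS165, 10.6 in NS242 and 5.34 in NS745. In SS it was 3.62, 1.59, 0.803, 1.12 and 2.35 in SS274, SS287, SS294, SS299 and SS310. SS274 overlapped the NS range, and NS108 alone stood far above all others. The log2 fold change was -2.67 (SE 0.75, adjusted p = 0.259, edgeR's quasi-likelihood test). Without NS108 it was -1.65 (SE 0.49, adjusted p = 0.251 by the same test). An adjusted p of 0.049 came from edgeR's exact test, which was 0.0902 without NS108 and rose to 0.124 without SS299, to 0.145 without SS287, to 0.209 without SS294 and to 0.232 without SS310. The other 3 tested miRNAs among 11 listed from bta-miR-2885 to bta-miR-2904 had negative log2 fold changes as well, from -0.95 to -0.60, and none passed at an unadjusted p under 0.05. Without NS108, 1 of the 4 was positive. bta-miR-2898, the most abundant of them, also peaked in NS108, at 127 CPM against 8.37 to 45.3 CPM elsewhere.

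The phenotypes did not overlap at all for 4 of the 342 miRNAs on the normalised scale, 2 higher (0.585%) and 2 lower (0.585%) in SS. bta-miR-34a, a p53 target in human and mouse cells, was 32.5, 26.0, 25.5, 26.4 and 22.0 normalised CPM in NS108, NS152, NS165, NS242 and NS745. In SS it was 32.6, 48.3, 39.7, 45.3 and 46.5 in the order SS274 to SS310. SS274 exceeded NS108 by a margin far smaller than the spread within either group. The log2 fold change was 0.69 (SE 0.23, adjusted p = 0.399, edgeR's quasi-likelihood test), and 0.67 without SS299.

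bta-miR-2419-5p had 17.8, 11.2, 8.38, 19.8 and 17.0 normalised CPM in the NS libraries and 21.8, 20.7, 49.0, 22.1 and 63.0 in the SS libraries. SS294 and SS310 carried most of the difference. The log2 fold change was 1.26 (SE 0.40, adjusted p = 0.372, edgeR's quasi-likelihood test). Without SS299 the exact test of edgeR called it, with a log2 fold change of 1.39 and an adjusted p of 0.0856. That test then called 6 miRNAs, 4 lower and 2 higher. The other higher one was bta-miR-1388-5p, named here after its value was seen (log2 fold change 1.24).

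bta-miR-320a, processed in mammals without the usual first cleavage step, was 463, 448, 582, 660 and 596 normalised CPM in the NS libraries. In SS it was 371, 323, 346, 350 and 377, a tight group below all NS values. The log2 fold change was -0.64 (SE 0.18, adjusted p = 0.259, edgeR's quasi-likelihood test), with 0.0772 by DESeq2. bta-miR-411c-5p, from the imprinted DLK1-DIO3 cluster, was 22.3 to 33.3 in NS and 15.3 to 21.3 in SS (log2 fold change -0.71, SE 0.24).

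These 4 depended on the scale. On CPM of library total none of them was free of overlap. On that scale 4 others of the 342 were, bta-miR-181d, bta-miR-184, bta-miR-2284x and bta-miR-2284y, all higher in SS. Without SS299, 5 of the 342 miRNAs were free of overlap in each direction on the normalised scale. With fewer libraries full separation is easier to reach, so these counts cannot be set against those over all libraries. TMM factors ranged from 0.637 in NS745 to 1.47 in NS108 and averaged 0.919 ± 0.334 in NS and 1.15 ± 0.181 in SS (SD, n = 5 each, exact permutation p = 0.222). The median log2 fold change of all 342 miRNAs was -0.01 with TMM and 0.32 with library totals alone. Of the miRNAs at an unadjusted p under 0.05, 44.4% were higher in SS with TMM and 90.3% with library totals alone, 28 higher and 3 lower.

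Other miRNAs among the 10 smallest p-values in each direction had adjusted p-values from 0.259 to 0.524 in edgeR's quasi-likelihood test, so none of them passed. Among those lower in SS were let-7 family members, miRNAs that in animals promote differentiation. bta-let-7e was 190 normalised CPM in NS108 and 435 to 701 in the other NS libraries, and 161 to 301 in SS. Its log2 fold change was -1.06 (SE 0.31). bta-let-7d was lower with a log2 fold change of -0.76 (SE 0.22). NS108 was the lowest NS library for bta-let-7e and, at 214 normalised CPM, for bta-let-7d, and it lay with SS for both. Without NS108, edgeR's quasi-likelihood test called bta-let-7e (adjusted p = 0.0622) and bta-let-7d (adjusted p = 0.0926). Leaving out the lowest NS library favours these calls and adds no support.

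All 10 tested members of the let-7 family had negative log2 fold changes, with a median of -0.19, against 174 negative of 342 in all, and 2 passed at an unadjusted p under 0.05. Without SS299 the 10 were still negative, with a median of -0.34. With library totals alone 7 of the 10 were positive and the median was 0.15. Over all 342 tested miRNAs, 261 were positive on that scale and the median was 0.32. The sign of the family median turned with the scale, but it lay below the median of all tested miRNAs on both scales. bta-let-7d and bta-let-7e stayed negative, at -0.35 and -0.59.

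bta-miR-423-5p was 62.8, 62.7, 99.6, 169 and 210 normalised CPM in the NS libraries and 41.6 to 64.8 in SS (log2 fold change -1.23, SE 0.36). NS242 and NS745 made most of the difference. bta-miR-365-5p, which also passed through NS only, had at most 6 counts in any library, and its log2 fold change of -1.66 (SE 0.63) rests on 19 counts in NS and 6 in SS.

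Among those higher in SS, bta-miR-96 had the largest fitted fold change, 2.52 on the log2 scale (SE 0.90), and 1 library decided it. bta-miR-96, a miRNA of the miR-183 cluster, was 1.57 to 12.4 normalised CPM in NS, 6.04 to 20.9 in 4 SS libraries and 172 in SS299. Without SS299, whose tissue markers went against its label, the log2 fold change was 0.76 (SE 0.52). The same library was the highest for bta-miR-210, a hypoxia-induced miRNA in mammals, at 95.1 normalised CPM. The other SS libraries had 48.0 to 59.6 and NS 17.6 to 51.1, and the log2 fold change of bta-miR-210 was 0.88 (SE 0.32), or 0.67 without SS299.

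bta-miR-200c, an epithelial miRNA, was 590, 351, 374, 445 and 83.2 normalised CPM in the NS libraries and 513 to 1158 in SS, with the highest value in SS299. Its log2 fold change was 1.08 (SE 0.42), and 0.89 (SE 0.42) without SS299. bta-miR-1271 was 10.4 to 42.6 in NS and 19.3 to 23.5 in 3 SS libraries, and only SS299 with 126 and SS310 with 273 exceeded NS. bta-miR-2285k was 12.6 to 50.4 in NS and 41.0 to 53.5 in 4 SS libraries, against 146 in SS310. bta-miR-184, bta-miR-502a and bta-miR-6523a had group means of at most 5.19 normalised CPM and log2 fold changes of 0.99, 1.76 and 1.61, and the latter pair passed the filter through SS only.

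**Figure D4:**
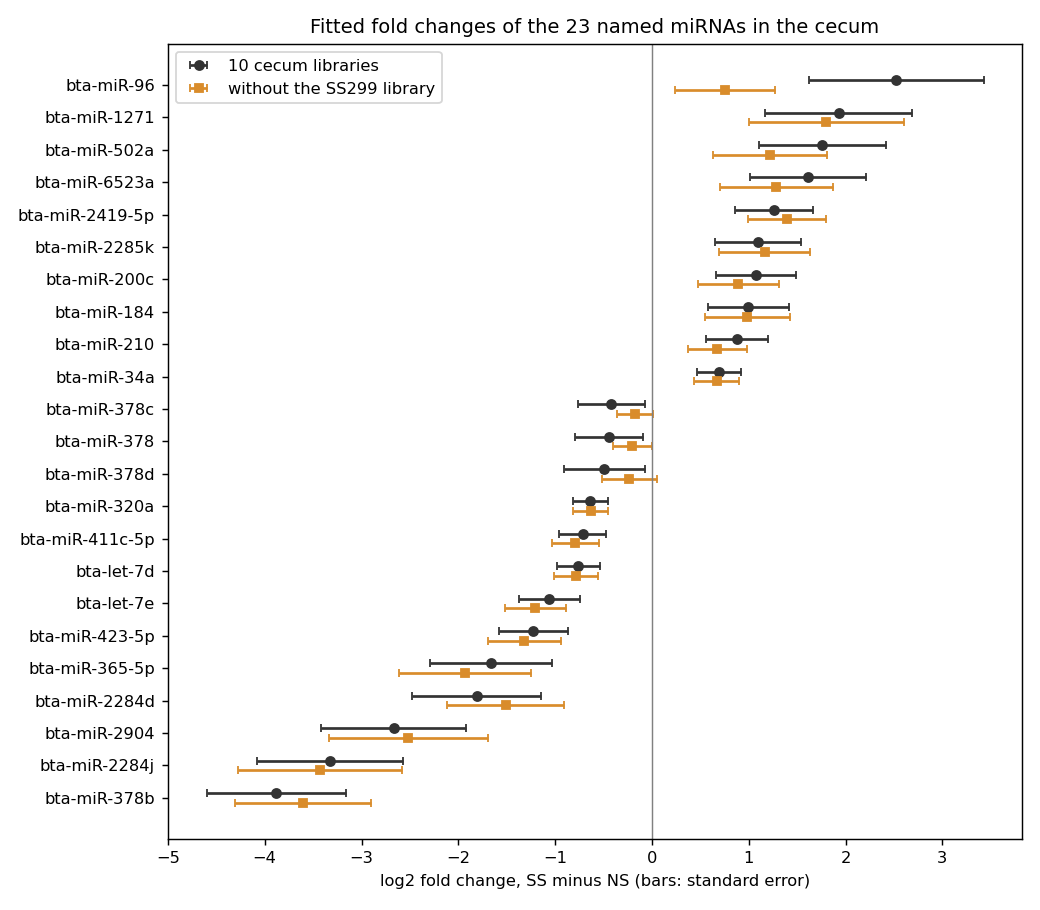
Fitted log2 fold changes (SS minus NS) of the 23 named miRNAs with their standard errors, from the 10 cecum libraries (circles) and without SS299 (squares). The values farthest left were -3.88 for bta-miR-378b, -3.33 for bta-miR-2284j and -2.67 for bta-miR-2904, and the value of bta-miR-96 moved from 2.52 to 0.76 without SS299.

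The shares of epithelial and muscle miRNAs differed from library to library, while tissue layers themselves were not measured. Summed over 9 epithelial miRNAs, 1.68% of counts in NS745, 6.53% in NS152, 8.84% in NS165, 12.5% in NS242 and 15.7% in NS108 were epithelial. In SS the sums were 8.23% to 21.9% with a median of 12.8%. For 6 muscle miRNAs NS ranged from 16.3% in NS108 to 70.8% in NS745 and SS from 21.7% to 50.7%. Nearly all of this sum was bta-miR-143 (16.2% in NS108, 70.4% in NS745). Shares of one total are not independent, so a large muscle sum lowers the epithelial one. NS745, the NS library without bta-miR-378b at the NS level, was the poorest in epithelial and the richest in muscle miRNAs. The 9 epithelial miRNAs were tested one by one, 7 had positive log2 fold changes (median 0.57), and 1, bta-miR-200c, passed at an unadjusted p under 0.05. All 5 tested muscle miRNAs had negative log2 fold changes (median -0.89), and none passed. Without SS299 no miRNA of either list passed at that p (medians 0.52 and -0.80). Over all tested in that refit, 12 of 332 were higher and 21 lower. Without NS108, 2 epithelial miRNAs were higher and 3 muscle miRNAs lower (medians 0.58 and -1.15). NS108 had the highest epithelial and the lowest muscle share in NS, so leaving it out favours both directions and adds no support. Over all tested in that refit, 18 of 338 were higher and 24 lower.

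**Figure D5:**
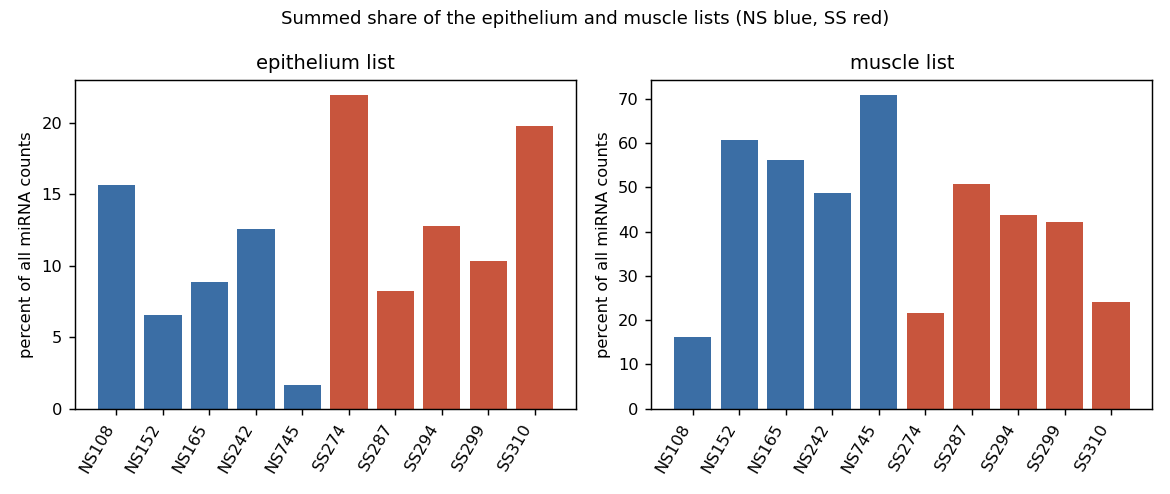
Percent of all miRNA counts in each cecum library taken by the epithelium list and the muscle list, NS in blue and SS in red, with axes that start at 0. Shares overlapped between phenotypes for both lists, and NS745 had the lowest epithelial share (1.68%) and the highest muscle share (70.8%).

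With the mean log2 CPM of the epithelial miRNAs as a covariate in the fit, the log2 fold change of bta-miR-378b was -4.41 and its adjusted p by edgeR's quasi-likelihood test was 0.0112. In that fit bta-miR-2284j and bta-miR-2904 passed as well, both with an adjusted p of 0.0512. The covariate was built from the same counts, and NS745 had the lowest epithelial share (1.68%), so the fit also adjusts for that library. Whether the mix of tissue layers bears on bta-miR-378b was not tested.

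Markers of other cells gave smaller sums. All 3 red blood cell miRNAs had negative log2 fold changes (median -0.68), 1 passed at an unadjusted p under 0.05 (bta-miR-144), and the direction rests on NS108. Their sum was 0.278% in NS108, 0.0243% to 0.0576% in the other NS libraries and 0.0355% to 0.0733% in SS. Without NS108, 2 of the 3 were positive (median 0.02) and none passed. The endothelial pair, both arms of miR-126, also turned with NS108. It summed to 2.46% in NS108, 0.348% to 0.581% in the other NS libraries and 0.592% to 1.11% in SS, so SS lay above every NS library but one. Its median log2 fold change was -0.33, and 0.14 without NS108. NS108 was also the library with the highest bta-miR-2904, and whether blood content bears on bta-miR-2904 was not tested. For white blood cells, 6 of 7 tested miRNAs had positive log2 fold changes (median 0.30), none passed at an unadjusted p under 0.05, and the sums were 0.132% to 0.844% in NS and 0.255% to 1.11% in SS. Without SS299, 7 of 7 were positive (median 0.55) and 2 were higher at an unadjusted p under 0.05. Over all tested in that refit, 157 of 332 were positive and 12 were higher at that p. The 4 pancreas and liver miRNAs summed to at most 0.000884% in any library, and none was tested.

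The list of inflammation-induced miRNAs shares bta-miR-146a, bta-miR-155 and bta-miR-223 with the white blood cell list and holds both arms of miR-21. These lists are therefore not separate. Of 8 inflammation-induced miRNAs, which include bta-miR-21-5p, bta-miR-146a and bta-miR-155, 7 had positive log2 fold changes (median 0.39) and none passed at an unadjusted p under 0.05. Without SS299, 8 of 8 were positive (median 0.44) and 1 was higher at that p, against 12 of 332 over all tested. bta-miR-155, known for its part in T-cell and macrophage responses in mice, had a log2 fold change of 0.74 (SE 0.39, adjusted p = 0.571, edgeR's quasi-likelihood test). The miR-17-92 clusters, linked to cell proliferation, had 9 of 14 positive values with a median of 0.19, and 11 of 14 with a median of 0.36 without SS299. In the DLK1-DIO3 cluster 30 of 34 tested miRNAs were negative with a median of -0.38, and 2 were lower and 1 higher at an unadjusted p under 0.05. With library totals alone 19 of the 34 were positive, against 261 of 342 over all tested. Without NS108, 6 were lower at an unadjusted p under 0.05 and the median was -0.58. Over all tested in that refit, 24 of 338 were lower and the median was 0.03. The 4 members of the miR-99/100 family had a median of 1.13, and bta-miR-100 in SS299 stood at 38260 CPM against 1399 to 8265 CPM elsewhere. Without SS299 that median was 0.11, and 1 member was lower at an unadjusted p under 0.05. The 2 members of the miR-125 family had a median of 0.83, and 0.06 without SS299.

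The remaining lists gave medians from -0.40 in the miR-30 family (6 of 6 negative, 3 of 6 positive with library totals alone) to 0.13 in the neuronal list. Over all tested, 261 of 342 were positive with library totals alone. The mesenchymal list had a median of -0.04, the miR-26 family of -0.35, the miR-29 family of 0.04, the miR-15/16 family of -0.03, the miR-23/24/27 clusters of -0.14 and the HOX-cluster miRNAs of 0.05. With library totals alone the medians of the mesenchymal list, the miR-15/16 family and the miR-23/24/27 clusters were positive, at 0.32, 0.27 and 0.21. The median over all tested miRNAs was 0.32 on that scale. None of these lists held a miRNA at an unadjusted p under 0.05 with all libraries. Without SS299 the miR-30 family held 1, lower in SS (median -0.26), the HOX-cluster median was 0.38 and those of the miR-15/16 family and the neuronal list were 0.11 and 0.05. Without NS108 the mesenchymal list held 1 that was higher and the miR-15/16 family 1 that was lower.

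The most abundant miRNAs took 68.2% to 89.2% of all counts as a set of 10. bta-miR-143 alone took 50.3 ± 20.6% in NS and 36.3 ± 12.6% in SS (SD, n = 5 each, exact two-sided permutation p = 0.222, 0.556 adjusted over the 10). bta-miR-192, the leading epithelial miRNA, took 7.33 ± 4.25% in NS and 11.6 ± 5.26% in SS (exact permutation p = 0.19, adjusted 0.556). For bta-miR-21-5p the shares were 1.77, 1.06, 1.496, 1.57 and 0.702% in the NS libraries and 2.73, 1.66, 2.03, 2.43 and 1.77% in the SS libraries. Its difference of 0.806 percentage points had an exact permutation p of 0.0159, which did not hold after adjustment (0.159). The other 7 had permutation p-values from 0.183 to 0.992. bta-miR-10b and bta-miR-10a, at 9.14% and 5.77% on average, varied widely, from 3.79% to 15.2% and from 0.295% to 11.8%, with both lowest values in SS299. Without SS299 the difference in share was 1.65 percentage points for bta-miR-10b, against 0.278 with it, and 4.18 for bta-miR-10a, against 2.50.

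No miRNA passed the test of a cecum difference that departs from the other regions. The difference of the SS effect in the cecum from that in the other 5 regions was tested in edgeR's quasi-likelihood fit over all 60 libraries with region and steer as terms. It called 0 of 381 miRNAs (0%), with 22 at an unadjusted p under 0.05 and a smallest adjusted p of 0.433. That smallest value belonged to bta-miR-34a, whose log2 fold change was 0.91 higher in the cecum (SE 0.26). For bta-miR-378b the difference was 0.15 (SE 0.52, adjusted p = 0.987), for bta-miR-2284j -0.01 (SE 0.72) and for bta-miR-2284d 1.08 (SE 0.74). For bta-miR-2904 it was -1.37 (SE 0.75, adjusted p = 0.861), with a mean of 15.7 CPM in the NS cecum against 4.82 to 12.2 CPM in the other NS regions. A difference that misses the threshold does not show that the regions respond alike.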

How the data were processed

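Small RNA libraries were made by the authors from snap-frozen gut tissue with a TruSeq kit and sequenced on an Illumina HiSeq. The values are counts of reads per mature miRNA, not normalised, as deposited by the authors in 1 table of 608 miRNAs and 60 libraries. The submitters' processing notes name Bowtie and edgeR without versions, and the study's methods name sRNAtoolbox at its default settings. No source used here gives the handling of reads that match several miRNAs or the genome build.

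Phenotype and region were taken from the sample labels. The members and lists were chosen with earlier results of these data known. CPM was computed from library totals over all listed miRNAs. The main test was edgeR 4.0.16 (R 4.3.3), quasi-likelihood with TMM factors on the 10 cecum libraries, kept at more than 1 CPM in at least 3 libraries of either phenotype and called at an FDR of 10%. Standard errors are the fold change divided by the square root of the F statistic. The exact test of edgeR, DESeq2 1.42.0 and limma-voom 3.58.1 were alternatives, with other scalings, filters, thinning and each library left out. Single values used exact two-sided permutation tests. Steers pair regions in the 60-library fit: deviations of a cecum library and another region of its steer correlated at 0.15 on average (42 of 50 positive), against -0.03 between steers (80 of 200 positive). Scripts were tested on simulated counts. Named miRNAs were those called by any of the 3 count tests, 4 given by name (bta-miR-378b, bta-miR-2904, bta-miR-2284d, bta-miR-2284j), the 10 smallest p-values in each direction and the miR-378 family. The most abundant miRNAs and list leaders are given by level. P-values of the cecum comparisons measure the spread between these 10 steers. Those of the 60-library fit with steer terms measure the spread left within steers across regions.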

Additional observations from a re-analysis of the deposited data

Results flagged for a closer look

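Over 84 groups of 5 values, 16 had a lowest or highest library farther from the rest than Dixon's 95% limit, where chance gives about 4.2. Of these, 2 belonged to the NS745 library. Its bta-miR-378b was 4.082 normalised CPM, and its bta-miR-2284d was 0.314.

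The NS108 library, the smallest, gave 9 of them, all high. They were bta-miR-2904 (40.29 normalised CPM), bta-miR-378d (13.95 normalised CPM), bta-miR-10b (14.62% of counts and, as the same value, 146200 CPM), bta-miR-26a (3.861% of counts), bta-miR-26c (3.68% of counts), the erythrocyte list (0.2781% of counts), the endothelium list (2.457% of counts) and the number of detected miRNAs (384). bta-miR-26a and bta-miR-26c had similar counts in every library and may not be separate measurements.

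The SS299 library, which went against its tissue label, gave 4. Its bta-miR-96 was 172.2 and its bta-miR-210 was 95.06 normalised CPM, above the other SS libraries. Its bta-miR-378c was 24.33 and its bta-miR-378d 1.497 normalised CPM, below them. In SS310, bta-miR-2285k was 146.1 normalised CPM. The causes were not tested.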

How the results depend on the processing

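The count of called miRNAs was 1 with RLE scaling, filterByExpr, no filter or all 60 libraries in one fit. It was 3 by the exact test of edgeR and with the epithelial covariate, 4 by DESeq2, and 0 by limma-voom, with library totals alone, with thinning to the smallest library and at an FDR of 5%. With each library left out it ranged from 0 to 3 in the quasi-likelihood test, and from 1 to 7 in the exact test (7 without NS108, 6 without SS299, 5 without NS152, 1 without SS310). It was 3 without SS299 and NS108, a choice made after seeing the data (bta-miR-378b, bta-let-7d and bta-let-7e). The list counts without SS299 or without NS108, and the results singled out without NS745, were also chosen after seeing the data. bta-miR-378b kept its direction in every setting run, but lost its call with limma-voom (-3.49), library totals alone (-3.68) and thinning (-3.66), and in 8 of the 10 fits that left out 1 library (log2 fold changes from -4.21 to -3.61 over the 10). It kept the call without NS108 or NS745. None of the 23 named miRNAs reversed in the quasi-likelihood test or its alternatives. The difference in detected miRNAs was 9.4 with at least 1 count and 8.6 after thinning, against -0.8 as reported, and -5.55 to 12.95 with each library left out.

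Of the abundant miRNAs, the differences in share turned to -4.13, -0.68 and -0.17 percentage points for bta-miR-10b, bta-miR-27b and bta-miR-148a when bta-miR-143 was taken out of the total. With each library left out, the differences ranged from -1.20 to 1.68 for bta-miR-10b, from -0.173 to 0.371 for bta-miR-26a, from -0.159 to 0.365 for bta-miR-26c and from -0.256 to 0.239 for bta-miR-22-3p. No share passed an adjusted p of 0.05 in any setting. The fit of the cecum difference without the steer as a replicate block called 0 miRNAs, as did the fit with the spiral colon alone and those without each steer.

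Depth limits the low miRNAs: 3 counts equal 0.600 to 3.43 CPM, and in each SS library bta-miR-2284j lay under that library's value.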
